A study of Mus musculus with 2 samples.

Results

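Srf peaks that lay near an acetylated region without reaching it were examined in HL-1 cells, a mouse line of atrial heart muscle cells that keeps contracting in culture. They were chosen by their measured distance: an Srf peak entered when it started at 3100000 bp or later on its chromosome and its gap to the closest H3ac peak, edge to edge, was over 500 bp and at most 10000 bp. This held for 285 of the 2190 Srf peaks, which is 13.0% (exact Clopper-Pearson 95% interval 11.6% to 14.5%), and for 14.0% of the 2032 Srf peaks past the first 3.1 Mb. The study comprised 1 chromatin immunoprecipitation library against Srf and 1 against acetylated histone H3 (H3ac), both from cells taken at maximum density; the labels name no treatment or genetic change. Neither library was repeated, so the classes of peaks below are compared without a test: intervals cover counting error and treat peaks as independent, although peaks cluster. The lists hold positions only, which leaves peak heights and the depth of sequencing unknown.

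Srf (serum response factor) is a DNA-binding protein of the MADS-box family that recognises the CArG box. In heart muscle it is known to drive genes of the contractile apparatus, together with cofactors such as the myocardin family and Gata4, and in growing cells it drives immediate early genes together with the ternary complex factors. Acetylation of histone H3 loosens the contact of nucleosomes with DNA and is typical of active promoters and enhancers. An Srf peak a few kilobases from an acetylated peak thus sits beside marked chromatin without being called as part of it. Positions are given in mm9, the build of the lists. No gene, start site or CArG box was assigned, since no genome or annotation of that build was used here.

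The gaps were crowded toward the short end. The shortest measured 501 bp, the lower quartile was 1031 bp, the median 2283 bp, the upper quartile 5605 bp and the longest 9959 bp. Between 500 and 1000 bp lay 70 of the 285 peaks, or 140 per kb of gap. From 1000 to 2000 bp there were 60 peaks, or 60 per kb. From 2000 to 5000 bp the 77 peaks gave 25.7 per kb. The last 5 kb held 78 peaks, or 15.6 per kb, and the 10 kb beyond the outer limit held 133, or 13.3 per kb. The steep part of the distribution therefore ended at about 3 kb: each 500-bp step from 3000 to 10000 bp held 6 to 14 Srf peaks, and the first 4 steps held 70, 36, 24 and 20. Leaving out chromosome 8, which carries dense stretches of Srf peaks, gave 114, 46, 19.7 and 12.8 per kb in the same 4 ranges and 11.6 per kb from 10 to 20 kb. These counts describe the quantity that selected the peaks and were not tested.

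**Figure D1:**
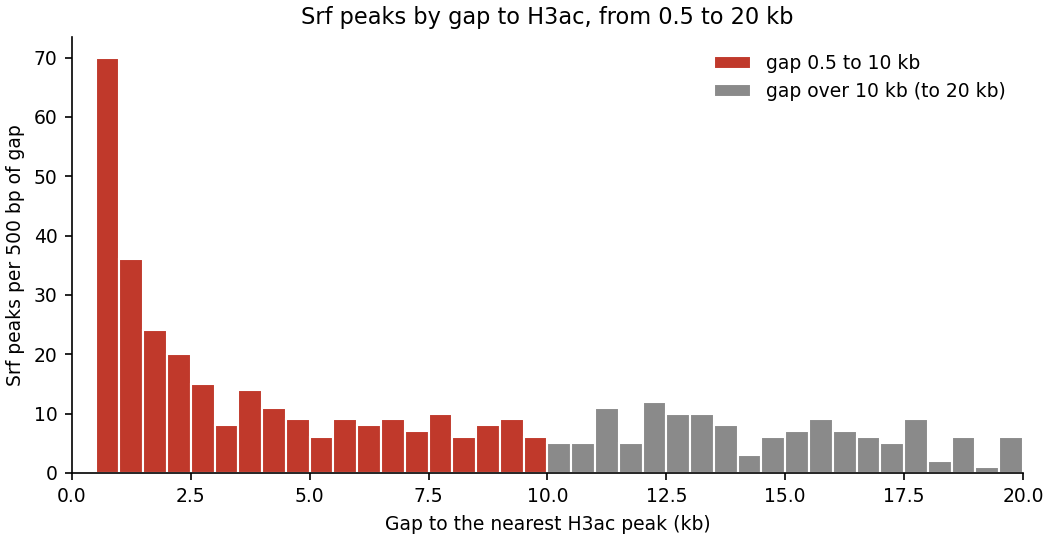
Srf peaks past the first 3.1 Mb of each chromosome (y axis, number per 500 bp of gap) by their gap to the nearest H3ac peak (x axis, kb). Red bars are the 285 peaks described here and grey bars are peaks beyond the 10-kb limit; the first red bar holds 70 peaks, and from 3 kb on each red bar holds 6 to 14.

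At the inner limit the selection cut through a continuous run of values. The closest members were chr1:99557687-99557793 and chr15:5194620-5194872, each with a gap of 501 bp, and chr19:36483986-36484149 with 511 bp. Just outside lay chr3:142057691-142057925, chr12:33504889-33505203 and chr8:48760454-48760695, with gaps of 496, 494 and 493 bp. At the outer limit the members were chr8:122843393-122843750 (9959 bp), chr9:62676618-62676768 (9956 bp) and chr8:3621278-3621391 (9897 bp). Beyond it came chr15:78869455-78869644, chr8:87334907-87335008 and chr6:121123628-121123926, with gaps of 10261, 10308 and 10358 bp.

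The selection set no limit on width, but it measured gaps from edges. At the same midpoint a wider Srf peak has a shorter gap, which favours its entry into the classes nearer to H3ac. The part of this in the width differences below was not tested. The 285 peaks had a median width of 159 bp (95% interval from binomial ranks 149 to 168 bp), with quartiles of 118 and 205 bp and a range of 99 to 703 bp. This was the lowest median of the 4 gap classes. Srf peaks that overlapped H3ac had a median of 188 bp (178 to 198 bp, n = 547), those with a gap of 1 to 500 bp 172 bp (165 to 181 bp, n = 613), and those over 10 kb away 173 bp (165 to 181 bp, n = 587). The share of wide peaks was the lowest and that of narrow ones the highest of the 4 classes. Peaks above the upper quartile of the whole Srf list (232.75 bp) made up 16.8% (12.7% to 21.7%) of the 285. The other classes, in the same order, had 31.8% (27.9% to 35.9%), 22.7% (19.4% to 26.2%) and 20.1% (16.9% to 23.6%). Peaks up to the lower quartile of that list (129 bp) made up 32.3% (26.9% to 38.0%). There the other classes had 24.5% (20.9% to 28.3%), 25.8% (22.4% to 29.4%) and 25.9% (22.4% to 29.6%). The interval of the wide share was apart only from that of the class on H3ac. That of the narrow share overlapped those of all the other classes. The median varied little with the distance within the class: it was 158 bp for gaps up to 1000 bp, 160 bp for those over 1000 and up to 5000 bp and 153.5 bp above that. It was 158 bp without chromosome 8, where the other classes gave 188, 171 and 174.5 bp. The interval of the narrow median overlapped those of the classes at 172 and 173 bp, which begin at 165 bp, but not that of the class on H3ac. Whether width follows the strength of binding cannot be read from lists without heights.

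**Figure D2:**
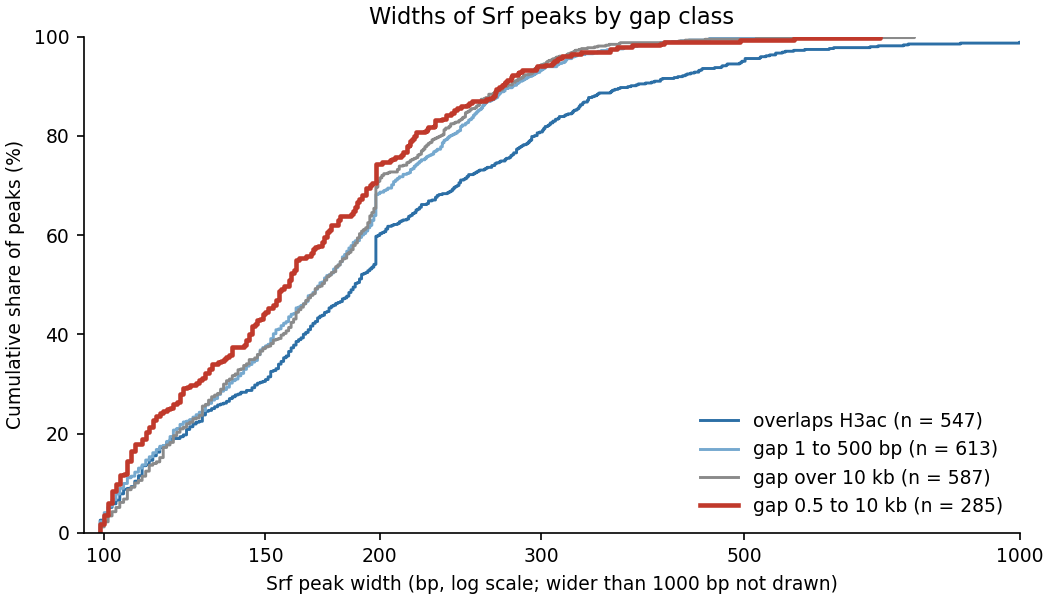
Cumulative share of Srf peaks (y axis, %) up to a given width (x axis, bp, log scale, drawn to 1000 bp) for the 4 gap classes. The red line of the 285 peaks runs left of the others over most widths, with its median at 159 bp, and the class that overlaps H3ac has the longest tail; all lines step at 198 bp.

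The 10 widest members spanned 332 to 703 bp, and 4 of them lay on chromosome 8. The widest, chr8:129118239-129118942 (703 bp), was 1041 bp from an H3ac peak of 141 bp, and 6 other Srf peaks lay within 10 kb of it. Next came chr2:22445565-22446131 (566 bp), 820 bp from an H3ac peak of 146 bp, with another Srf peak only 216 bp away. A peak on the distal part of chromosome 11, chr11:120211296-120211791 (495 bp), had H3ac on both sides, 1642 and 3280 bp off, and no other Srf peak within 10 kb. The fourth, chr9:32143346-32143755 (409 bp), was the only one of the 10 whose nearest H3ac peak was broad, at 1320 bp, with a gap of 3738 bp. It stood alone among Srf peaks, the nearest being 363666 bp away.

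Another pair of wide peaks had close Srf company. The peak chr2:113878474-113878878 (404 bp) lay 659 bp from an H3ac peak of 160 bp and had 2 Srf neighbours within 10 kb. The peak chr7:19895472-19895849 (377 bp) also had 2, but its nearest H3ac peak was 9278 bp away. The remaining 4 had no Srf neighbour within 10 kb. On chromosome 8 these were chr8:128340627-128340990 (363 bp, gap 8471 bp), chr8:87187850-87188207 (357 bp, gap 1242 bp) and chr8:122843393-122843750 (357 bp, gap 9959 bp). The last, chr16:92345464-92345796 (332 bp), lay between H3ac peaks 3697 and 3151 bp away on its lower and higher side. Wide members thus occurred at gaps across the whole range, from 659 to 9959 bp.

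Within 10 kb, most of the 285 peaks had H3ac on 1 side only. A single H3ac peak lay within 10 kb of 192 of them, 2 lay within 10 kb of 54, 3 of 27, and 4 or more of 12. The mean was 1.59 H3ac peaks, between the 1.71 of peaks on H3ac and the 1.42 at gaps of 1 to 500 bp. The median was 1 in each of these classes. H3ac peaks lay only at lower coordinates of 117 peaks and only at higher coordinates of 110, while 58 peaks, or 20.4% (15.8% to 25.5%), had H3ac on both sides. Of those with a gap up to 500 bp, 20.4% (17.3% to 23.8%) had H3ac on both sides as well, and so did 26.0% (22.3% to 29.8%) of those on H3ac, with the overlapping peak assigned to a side by its midpoint. At the 58 peaks the nearer H3ac peak had a median gap of 1623.5 bp and the farther one 5622.5 bp, so the stretch free of called H3ac around them measured 7558.5 bp in the median (1361 to 16107 bp). Flanking on both sides became rarer with distance, from 28.6% (20 of 70) for gaps up to 1000 bp to 25.5% (35 of 137) up to 5000 bp and 3.85% (3 of 78) beyond, a trend the fixed window of 10 kb favours. The nearest H3ac peak lay at lower coordinates in 152 cases and at higher ones in 133, or 53.3% (47.4% to 59.2%) lower, an interval that includes an even split. Genome order is not gene orientation, which was not used here.

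**Figure D3:**
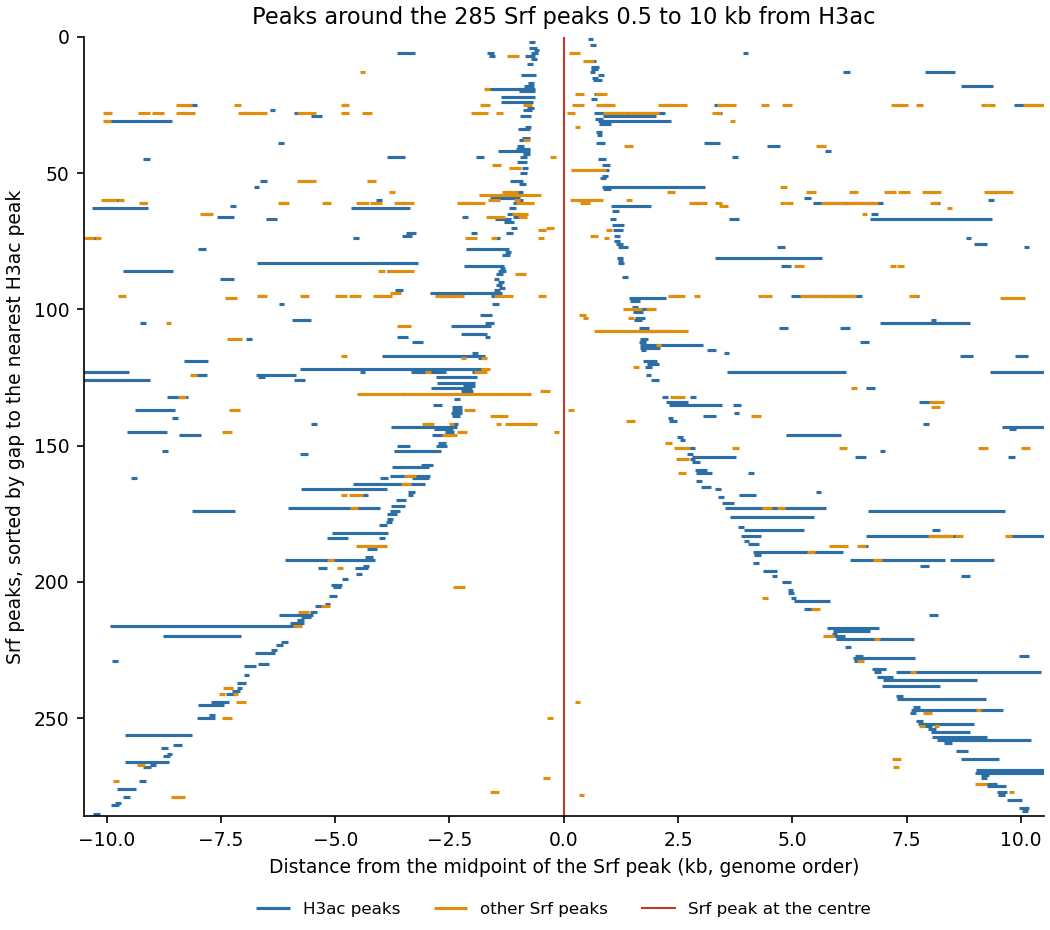
Each row is 1 of the 285 Srf peaks, sorted by its gap to H3ac (y axis, shortest on top), and the x axis gives the distance from its midpoint (kb, genome order; red line at 0). Blue bars are H3ac peaks and orange bars other Srf peaks within 10 kb (drawn at least 120 bp long); most rows hold a single blue bar on 1 side, and a few rows from crowded regions hold many of both colours.

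The H3ac peaks nearest to these Srf peaks resembled the H3ac list as a whole in width. They were 263 different peaks; 21 of them served more than 1 Srf peak, at most 3. Their median width was 187 bp (quartiles 136 and 338 bp), against 185 bp (135 and 352 bp) for all 10486 H3ac peaks. Counted per Srf peak, the nearest H3ac peak was 1000 bp or wider in 32 of 285 cases, or 11.2% (7.81% to 15.5%), near the background of 12.1% over all 2032 Srf peaks. That background is a mixture. The share was 23.8% (20.3% to 27.6%) where Srf overlapped H3ac, which wide peaks favour by length, 1.63% (0.785% to 2.98%) at gaps of 1 to 500 bp, and 12.4% (9.88% to 15.4%) beyond 10 kb. Among the 285 the share was 5.71% (4 of 70) up to 1000 bp, 10.2% (14 of 137) up to 5000 bp and 17.9% (14 of 78) above, with wide, overlapping intervals (1.58% to 14.0%, 5.70% to 16.6% and 10.2% to 28.3%). Broad H3ac peaks were thus rarest at gaps of 1 to 500 bp, and the interval of the 285 included the 10.9% of the full H3ac list.

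These nearest H3ac peaks often had company of their own. Another H3ac peak lay within 10 kb of 97 of the 263, or 36.9% (31.0% to 43.0%), against 28.9% (28.0% to 29.8%) of all H3ac peaks. Counted per Srf peak this was 39.3% (33.6% to 45.2%), close to the 37.7% (33.6% to 41.9%) of Srf peaks on H3ac, and 27.9% and 15.3% of those with a gap up to 500 bp and over 10 kb. Within 1 kb, among the 263, it was 6.08% (3.52% to 9.69%) against 7.84%. For 62 of the 285 Srf peaks, or 21.8% (17.1% to 27.0%), the nearest H3ac peak had a different Srf peak within 500 bp. This was so for 15.4% of all 2032 Srf peaks, with 19.4% (16.1% to 22.9%) of those on H3ac, 12.7% (10.2% to 15.6%) of those with a gap up to 500 bp and 11.4% (8.96% to 14.3%) of those beyond 10 kb. In 39 cases (13.7%) another Srf peak lay in the space between the Srf peak and its nearest H3ac peak, a share not compared with other classes. In both kinds of case the acetylated site had a closer Srf peak than the one described.

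Other Srf peaks were frequent nearby. At least 1 lay within 10 kb of 101 of the 285 peaks, or 35.4% (29.9% to 41.3%), against a background of 22.3% over all 2032 Srf peaks. The share was 33.5% (29.5% to 37.6%) for Srf peaks that overlapped H3ac, 19.2% (16.2% to 22.6%) for gaps of 1 to 500 bp and 8.86% (6.69% to 11.5%) beyond 10 kb. Without chromosome 8 the order was unchanged, at 31.4% (25.4% to 37.9%), 29.2%, 16.5% and 8.30%. The first 2 of these values do not differ beyond their intervals. The window of 10 kb equals the outer limit of the gap, so peaks beyond 10 kb have no H3ac peak in it by definition. The background includes that class. The part of this limit in its low share was not tested. Of the 101, 64 had 1 such neighbour, 21 had 2 and 16 had 3 or more, up to 16. The nearest neighbour overlapped H3ac in 39 cases, was itself within 0.5 to 10 kb of H3ac in 38, lay within 500 bp of H3ac in 21 and was over 10 kb from it in 3. The median gap to it was 2252 bp. The 101 include all 62 peaks whose nearest H3ac peak had a different Srf peak within 500 bp.

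Pairs of Srf peaks at very short range were counted separately. In 25 cases the nearest Srf peak was within 500 bp and in 10 more within 1000 bp, together 12.3% (8.71% to 16.7%), near the 13.6% of all 2032 Srf peaks. The share was 23.4% (19.9% to 27.2%) for peaks that overlapped H3ac, 13.2% (10.6% to 16.2%) for gaps of 1 to 500 bp and 5.62% (3.90% to 7.80%) beyond 10 kb. Among the 285, 25.7% (16.0% to 37.6%) of those with a gap up to 1000 bp had another Srf peak within 1 kb. The share was 9.49% (5.15% to 15.7%) in the middle range and 5.13% (1.41% to 12.6%) above 5000 bp. A window of 1 kb reaches the nearest H3ac peak only at gaps up to 1000 bp, and its part in this trend was not tested. The nearest H3ac peak had a different Srf peak within 500 bp in 21.4%, 21.2% and 23.1% of the same ranges. At the other extreme 18 peaks had no other Srf peak within 1 Mb, a count not compared with other classes. The median gap to the nearest Srf peak was 28485 bp (21754 to 45085 bp) for the 285, against 75857 bp over all 2032 Srf peaks. It was 45146 bp (32880 to 56803 bp) for peaks that overlapped H3ac, an interval that overlaps that of the 285. Gaps of 1 to 500 bp and beyond 10 kb gave 85703 and 138041 bp. The 184 peaks with no Srf neighbour within 10 kb had a median width of 160.5 bp and a median gap to H3ac of 2787 bp, and the 101 with one had 148 and 1893 bp. Their width intervals overlapped (154 to 173 and 143 to 169 bp), as did their gap intervals (2161 to 3549 and 1494 to 2327 bp).

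The wider surroundings, from 10 to 100 kb, lie outside the window that selected the 285 peaks. There, 58.2% (52.3% to 64.0%) of the 285 had a further Srf peak, against 51.2% (46.9% to 55.5%), 46.7% (42.6% to 50.7%) and 38.0% (34.0% to 42.1%) of the classes that overlap, lie within 500 bp and lie beyond 10 kb. The same zone held a median of 3 H3ac peaks (mean 4.74, up to 22), against means of 4.15, 3.62 and 2.34. Stretches with 10 or more H3ac peaks in that zone surrounded 13.7% (9.92% to 18.2%) of the 285, and 11.0%, 7.01% and 1.87% of the others. Without chromosome 8 that share was 7.52% (4.44% to 11.8%), beside 6.15%, 5.19% and 1.35%, and the mean was 3.80 H3ac peaks, beside 3.29, 3.27 and 2.09. The share with a further Srf peak was 52.7% (45.9% to 59.3%) there, beside 42.1%, 42.4% and 33.8%. The median of 3 H3ac peaks was the same in the 2 classes nearer to H3ac. With and without chromosome 8, both shares and the mean were highest for the 285 peaks and lowest beyond 10 kb. In the class beyond 10 kb, the gap that defines it decides whether the zone holds any H3ac peak. At least 1 lay there for 444 of 587 (75.6%), and the part of this in its lower H3ac values was not tested. For the 285 peaks the intervals of both shares overlapped those of the peaks on H3ac. Without chromosome 8 they also overlapped those of the peaks with a gap up to 500 bp.

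**Figure D4:**
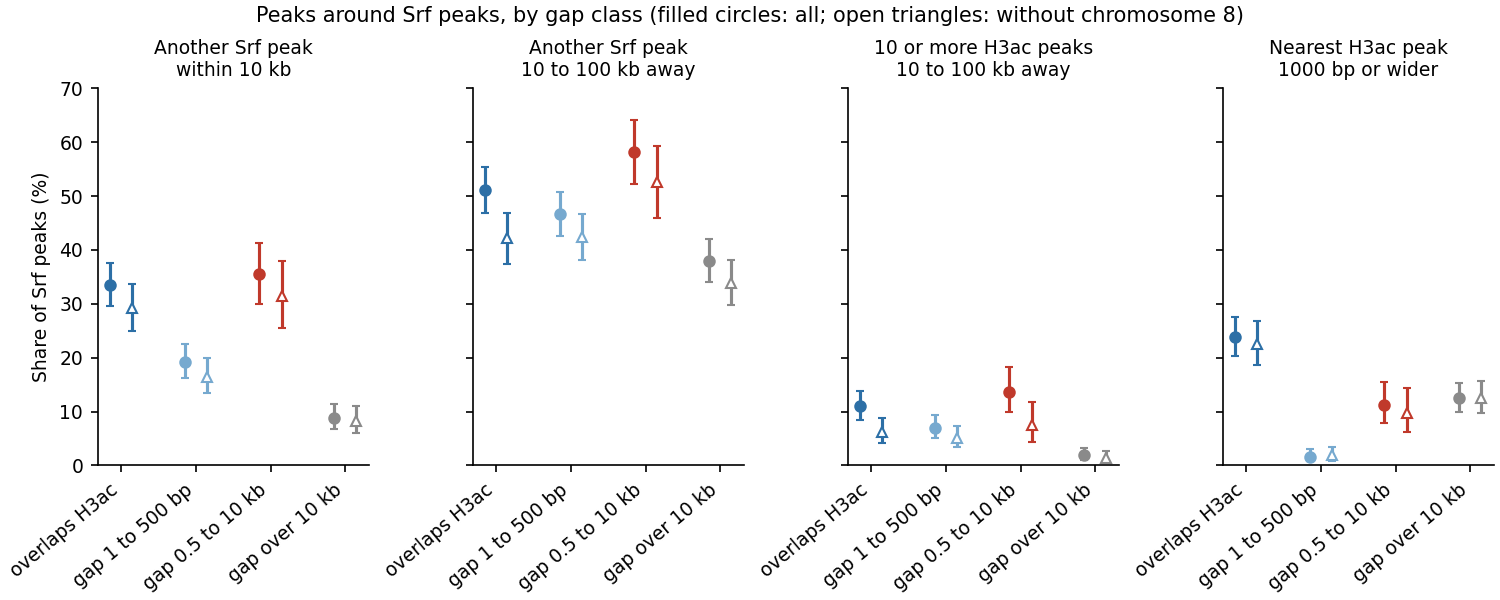
Share of Srf peaks (y axis, %) with the neighbour named above each panel, for the 4 gap classes (x axis); bars are exact 95% intervals, filled circles all chromosomes and open triangles those other than 8. The red class reaches 35.4% with another Srf peak within 10 kb and 58.2% at 10 to 100 kb, and its share with a broad nearest H3ac peak, 11.2%, lies between those of the blue classes.

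Along the genome the peaks were found on chromosomes 1 to 19 and X. Chromosome 8 had 59 of them, or 20.7% of the 285, beside 15.2% of the Srf peaks and 7.63% of the H3ac peaks. In the 8 Mb of chromosome 8 densest in Srf peaks, from 122 to 130 Mb, lay 38 peaks, which made 13.3% (9.61% to 17.8%) of the 285. That block held 12.8% of the peaks that overlap H3ac, 6.53% of those within 500 bp and 4.60% of those beyond 10 kb. As a share of a chromosome's own Srf peaks, the class ranged from 7.89% on chromosome 19 (6 of 76, interval 2.95% to 16.4%) to 22.2% on chromosome 15 (20 of 90, 14.1% to 32.2%), with 19.1% (14.9% to 23.9%) on chromosome 8. On 18 of the 20 chromosomes the interval included the overall 14.0%. Chromosomes 8 and 15 lay above it, singled out after their values were seen, and at chromosome 15 the lower bound of 14.1% nearly touched it.

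**Figure D5:**
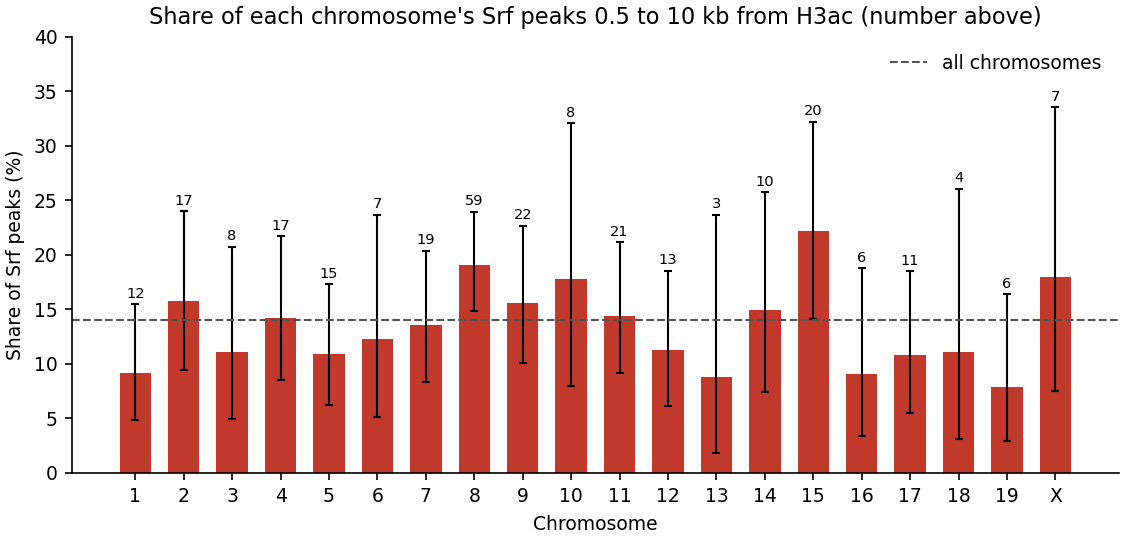
Share of each chromosome's Srf peaks (past the first 3.1 Mb) that lay 0.5 to 10 kb from H3ac (y axis, %) by chromosome (x axis), with exact 95% intervals and the number of such peaks above; the dashed line is 14.0%, the share over all. Chromosomes 8 and 15 stand highest among those with over 10 peaks, at 19.1% and 22.2%.

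Most of the 285 peaks lay apart from each other. When members up to 10 kb apart were joined, 242 joined none, 14 pairs and 3 runs of 3 formed, and 1 run had 6. Srf peaks of the other classes were left out of this joining. With them counted, 101 of the 285 had another Srf peak within 10 kb, and 69.1% had one within 100 kb. The share within 100 kb was 62.5% for peaks that overlap H3ac, 52.9% within 500 bp of it and 42.4% beyond 10 kb. The run of 6 lay near the end of the X chromosome, from 166413761 to 166433972, in the 100-kb region that also held the most members. That region carried 20 Srf peaks, of which 11 overlapped H3ac and 3 lay within 500 bp, and 10 H3ac peaks. The 6 members there were 118 to 272 bp wide with gaps of 588 to 2579 bp. Of these, chrX:166429489-166429714, chrX:166429044-166429221 and chrX:166424589-166424861 had the most H3ac peaks of all members within 10 kb, 9 each, beside 16 Srf peaks each. The last of these lay in a stretch of 1563 bp between 2 H3ac peaks. The outermost member, with the gap of 2579 bp, had H3ac within 10 kb at higher coordinates only.

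The other runs were smaller. On chromosome 18, 3 members lay from 61837322 to 61844868, with widths of 121 to 226 bp and gaps of 1192 to 2327 bp; 4 other Srf peaks of that 100-kb region lay within 500 bp of H3ac and 1 overlapped it. On chromosome 2, the 3 members from 113878474 to 113884409 were the only Srf peaks of their 100-kb region, which held 2 H3ac peaks. They measured 404, 188 and 219 bp, with gaps of 659, 2185 and 775 bp. On chromosome 8, 3 members lay within 1540 bp, from 129118039 to 129119579, all on the higher side of the same H3ac peak of 141 bp, with gaps of 841, 1041 and 2268 bp. The 100-kb regions with the most members after X were chromosome 5 from 23.8 to 23.9 Mb and chromosome 8 from 129.1 to 129.2 Mb, with 4 each. In the former the 4 members, 111 to 314 bp wide, were spread from 23832573 to 23866968 beside 1 Srf peak on H3ac and 6 H3ac peaks. In the latter 4 of the 10 Srf peaks overlapped H3ac.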

How the data were processed

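Per the labels' protocols, libraries were read on a Genome Analyzer. The authors deposited 1 list of peak positions (identifier, chromosome, start, end) per antibody. Per the submitters' processing notes, positions refer to mm9. What aligned the reads, called and filtered the peaks or served as input is not given in the sources at hand, and neither is whether positions count from 0 or from 1. A gap shorter by 1 bp would drop the 2 peaks at 501 bp.

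Gaps were taken between nearest edges over all H3ac peaks of a chromosome. Shares have exact Clopper-Pearson intervals (95%) and medians have intervals from binomial ranks. Srf peaks past the first 3.1 Mb were put into 4 classes: overlap, gap up to 500 bp, up to 10 kb, and beyond. Regions named were the 10 widest members, the 3 on each side of both limits, the 3 with the most H3ac peaks within 10 kb, and the 3 regions of 100 kb and 3 runs with the most members. The run of 3 on chromosome 8 was named after its values were seen. The rule and these measures were set with earlier results of these data known. Software was scipy 1.17.1, numpy 2.4.6 and pandas 2.3.3 under Python 3.11.15, with figures by matplotlib 3.10.9. The gene and promoter tables at hand follow another build and were not used.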

Additional observations from a re-analysis of the deposited data

How the results depend on the processing

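The 6 values recomputed were the number of peaks, their median width and the 4 shares with another Srf peak within 10 kb, H3ac on both sides, a nearest H3ac peak of 1000 bp or more, and a nearest H3ac peak with an Srf peak within 500 bp. Under 8 alternatives, 42 of 48 values stayed inside the reported interval or, for the number (207 to 418), within 1.5 times of 285. Midpoint distances raised the share with a broad nearest H3ac peak to 17.2%. They gave 418 peaks, and this setting did not leave out Srf peaks that overlap H3ac or lie within 500 bp of its edge. An outer limit of 5 kb raised the share with H3ac on both sides to 26.6%. Keeping the chromosome starts added 76 peaks and gave a median width of 174 bp, 49.0% with another Srf peak, 29.1% with H3ac on both sides and 35.7% with an occupied H3ac peak; the cause was not tested. Leaving out the crowded region of the X chromosome, added after seeing the data, left every one of the 6 values in its interval. This setting kept 279 of the 285 peaks and could hardly have moved them outside. No paired analysis was possible because each antibody had 1 library. How deeply either library was sequenced is unknown, and a longer H3ac list would shorten some gaps.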

Other observations

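At the chromosome starts, before 3.1 Mb, 76 further Srf peaks had gaps of over 500 bp and up to 10 kb. Chromosome 11 held 33 of them, chromosome 9 held 31, chromosome 4 held 11 and chromosome 18 held 1. Their median width was 204 bp (quartiles 185 and 248.25 bp), against 159 bp for the 285 peaks, and each of the 76 had another Srf peak within 10 kb, against 101 of the 285. Their median gap to H3ac was 1462 bp. The 33 on chromosome 11 lay from 3039537 to 3100027 and the 31 on chromosome 9 from 3000798 to 3038301. Srf peaks at chromosome starts with other gaps were not compared.

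A width of exactly 198 bp was shared by 11 of the 285 peaks, or 3.86% (1.94% to 6.80%), and by 5.67%, 4.24% and 4.26% of the peaks that overlap H3ac, lie within 500 bp and lie beyond 10 kb. The minimum of 99 bp was shared by 5 of the 285, or 1.75%, near the 1.97% of all 2032 Srf peaks.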
